A study of Mus musculus with 12 samples.

Results

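The 9 genes Cs, Idh3a, Idh3b, Idh3g, Ogdh, Dlst, Suclg1, Fh1 and Mdh2 encode enzymes and enzyme subunits of the mitochondrial citric acid cycle. They were taken by gene symbol, and all 9 were found among the 21493 genes listed for every library. Poly-A RNA had been sequenced from primary cardiomyocytes of the hearts of 3-month-old mice whose desmin gene was intact (Des+/+) or missing (Des-/-). Desmin is the intermediate filament protein of muscle, which ties the contractile apparatus to mitochondria, nuclei and cell junctions. In each background the mice had either swum as an exercise stress (swim) or not (non-swim), which gave 4 groups of 3 libraries, 12 in all. Each library was a pool of cells from several mice according to the study's methods, so a replicate stands for a pool rather than an animal. By those methods mice of either sex were taken, and both genotypes carried the αMHC-GFP reporter, a green fluorescent protein driven by a cardiomyocyte promoter. The sex makeup of each pool was not given in the sources used here.

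The citric acid cycle oxidises the acetyl groups that fatty acids, ketone bodies and pyruvate deliver as acetyl-CoA, and hands the electrons to the respiratory chain as NADH and FADH2. Heart muscle contracts without pause and packs its cells with mitochondria, so it runs the cycle at a high rate. Citrate synthase (Cs) opens the cycle. The NAD-dependent isocitrate dehydrogenase, built of a catalytic subunit (Idh3a) and of the subunits encoded by Idh3b and Idh3g, and the 2-oxoglutarate dehydrogenase complex, with its E1 (Ogdh) and E2 (Dlst) components, catalyse the oxidative decarboxylations. Succinyl-CoA ligase (alpha subunit, Suclg1), fumarase (Fh1) and malate dehydrogenase (Mdh2) belong to the later steps that lead back to oxaloacetate.

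The genes lie on 9 different chromosomes of the mouse genome build GRCm38. Idh3g is on the X chromosome (chrX:73778963-73786897, minus strand), Idh3a on chromosome 9 (chr9:54586334-54604661, plus strand), Idh3b on chromosome 2 (chr2:130279309-130284547, minus strand) and Ogdh on chromosome 11 (chr11:6291633-6356642, plus strand). Of the 9 members, 8 had a promoter window in RefSeq on build GRCm38.p6, covering 250 bases before and 50 bases after an annotated start site, and Idh3a had no entry. These windows were searched on both strands for 5 short motifs. The letters TCAAGGTCA, bound by estrogen-related receptors, were in 0 of the 8 members and in 0.466% of 27025 genes with a window. The ETS-type letters CCGGAAG, the kind bound by GABP, were in Idh3b, Idh3g and Dlst and in 9.93% of genes. The YY1-type letters AAGATGGCG were in Idh3g and in 1.64% of genes, the NRF1-type letters CGCATGCGC were in Ogdh and in 1.95%, and the Sp-type letters GGGCGG were in Cs, Ogdh, Dlst, Fh1 and Mdh2 and in 38.2%. The searched motifs did not overlap one another in the stretches below. These show the matches before or across a start site of Idh3g, Idh3b and Ogdh, since the ratios between subunits carry much of what follows. Capitals mark the YY1, ETS or NRF1 letters, in either orientation, and each stretch of 60 bases reads 5′ to 3′ along the gene.
Idh3g, chrX:73786978-73787037, minus strand, 140 to 81 bases before the start site: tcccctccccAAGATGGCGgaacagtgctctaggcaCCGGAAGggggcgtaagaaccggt
Idh3b, chr2:130284450-130284509, minus strand, from 58 bases before the start site to the base 2 of the transcript: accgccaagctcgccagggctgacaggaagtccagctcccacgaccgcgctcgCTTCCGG
Ogdh, chr11:6292498-6292557, plus strand, the last 60 bases before one of its start sites: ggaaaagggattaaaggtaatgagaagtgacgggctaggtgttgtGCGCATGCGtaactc
A match describes the letters of the window and was not measured as binding.

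Reads assigned to genes ranged from 4320819 to 12072443 per library, and the 9 members took 0.136% to 0.799% of them. Des itself lay between 973 and 3647 CPM in Des+/+ and between 50.3 and 100.5 CPM in Des-/- libraries, where CPM is the usual scaled count, relative to the TMM-scaled total of the library. The 13 cardiomyocyte marker genes were detected in every library. Replicate 3 of the Des-/- non-swim and Des-/- swim groups stood at the end of the first principal component (48.9% of the variance). Summed over 4 genes of the Y chromosome, chosen after the data were seen, these libraries held 179 and 272 CPM, whereas the other Des-/- libraries held 0 to 0.995 CPM and the Des+/+ libraries 4.06 to 292 CPM. The part of this difference in the members' levels was not tested. The fit without both of these libraries leaves the Des-/- groups at 0 to 0.995 CPM, so it cannot test it. For every member, replicate 3 was the lowest library of its group in both Des-/- groups, replicate 2 the lowest of the Des+/+ swim group, and replicate 2 the highest of both non-swim groups.

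The first comparison asked how the loss of desmin goes with these transcripts in hearts that had not been stressed. All 9 members were lower in Des-/- non-swim than in Des+/+ non-swim libraries, with means between 20.03% (Idh3a) and 32.6% (Dlst) of the Des+/+ mean. Each of the 9 was called lower at an adjusted p under 0.05 in edgeR's quasi-likelihood test, and 18.0% of the 13158 genes tested were called lower in this comparison. For all 9, no library overlapped between the groups, which was also true, in the lower direction, of 24.9% of all genes. The median log2 change of the members was -1.94, beside 0.04 over all genes tested.

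**Figure D1:**
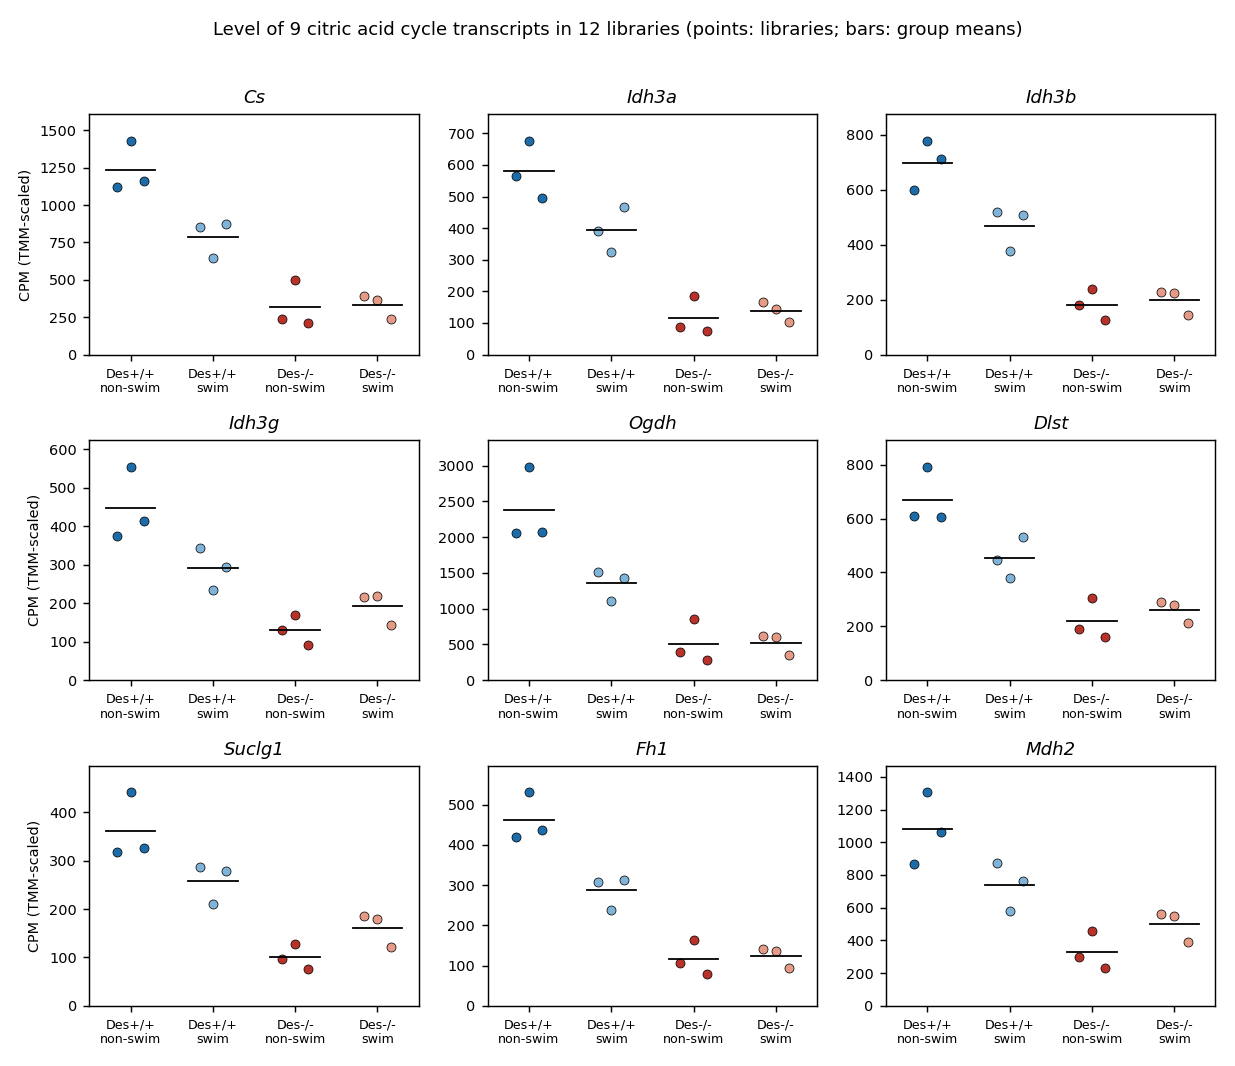
Level of each of the 9 transcripts in scaled counts (CPM, linear axes from 0) in the 12 libraries. Points are libraries and bars are means of the 3 libraries of a group. In every panel the 3 Des+/+ non-swim libraries lie above the 3 Des-/- non-swim libraries, and for Ogdh the group means fall from 2374 to 512 CPM.

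Citrate synthase, whose activity is a common measure of mitochondrial content, stood at 1124.5, 1429 and 1159 CPM in Des+/+ non-swim libraries 1 to 3 and at 236, 502 and 208 CPM in Des-/- non-swim libraries. The highest Des-/- library lay 2.24 times below the lowest Des+/+ library. The log2 change of Cs was -1.97 (SE 0.33, edgeR adjusted p 0.00164).

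Among the isocitrate dehydrogenase subunits, Idh3a changed most of all 9 members. It was measured at 566, 676 and 497 CPM in Des+/+ and at 87.2, 186 and 74.7 CPM in Des-/- non-swim libraries, a log2 change of -2.32 (SE 0.33, edgeR adjusted p 0.0010). The groups were 2.67 times apart at their nearest libraries, the widest gap of the 9 members. Idh3b stood at 599, 777 and 712 CPM against 181, 239 and 126 CPM (log2 change -1.94, SE 0.26, edgeR adjusted p 0.000903). Idh3g stood at 376, 555 and 414 CPM against 129, 170.4 and 90.7 CPM (log2 change -1.78, SE 0.26, edgeR adjusted p 0.00115). Replicate 2 was the highest Des-/- non-swim library for each of the 3 subunits.

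Ogdh, the thiamine-dependent E1 component, had the highest counts of the set before correction for length, with 2064, 2988 and 2071 CPM in Des+/+ and 395, 855 and 285 CPM in Des-/- non-swim libraries. Its log2 change was -2.21 (SE 0.39, edgeR adjusted p 0.00208). Dlst, the succinyltransferase core of the same complex, went from 611, 793 and 605 CPM to 189, 305 and 162 CPM, the smallest change of the 9 (log2 change -1.62, SE 0.25, edgeR adjusted p 0.00122). The spread among Des-/- non-swim libraries was also wider for Ogdh, with a coefficient of variation of 59.1%, than for Dlst, with 34.7%.

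Of the later steps, Suclg1 stood at 318, 442 and 327 CPM in Des+/+ and at 95.8, 128 and 76.7 CPM in Des-/- non-swim libraries (log2 change -1.86, SE 0.24). Fumarase (Fh1) stood at 419.9, 531 and 436 CPM against 107, 165 and 78.5 CPM (log2 change -1.98, SE 0.26). Mdh2, whose enzyme also serves the malate-aspartate shuttle, stood at 869, 1306 and 1061 CPM against 299, 454 and 231 CPM (log2 change -1.72, SE 0.28). Their edgeR adjusted p-values were 0.000852, 0.000896 and 0.00144. Without swimming, every member was called in each of the 12 fits that left out 1 library and in the fit without both Des-/- libraries numbered 3.

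Markers of the heart's cell types moved with this comparison. All 13 of 13 cardiomyocyte markers were called lower without swimming, with a median log2 change of -2.11, and their summed level ranged from 74403 to 112853 CPM in Des+/+ and from 7622 to 34612 CPM in Des-/- non-swim libraries. All 10 fibroblast markers were called higher (median 1.52), and 8 of 10 macrophage markers (median 2.66), whereas the 10 endothelial markers had a median of -0.01. Over all genes, 1840 of 13158 were called higher in this comparison. None of the 13 cardiomyocyte markers, Myh6, Tnnt2 and Ttn included, was at 0 in any library. In libraries made from many cells, fewer cells of a type and less RNA per cell cannot be told apart. With the mean log2 level of the 13 markers as a covariate, added after the data were seen, 0 of 9 members and 0.0380% of all genes were called without swimming, and the members' log2 changes lay between -0.40 (Mdh2 and Ogdh) and -0.89 (Idh3a). The covariate itself did not overlap between these groups (11.96 to 12.54 in Des+/+ and 8.90 to 10.89 in Des-/-), so genotype and marker level cannot be told apart in that fit.

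The same genotype comparison was then made after swimming. All 9 members were again lower in Des-/- libraries with no overlap between the groups, and 5 of the 9 were called lower, where 5.57% of all genes were called lower and 18.6% were lower without overlap. The called members were Idh3a, Ogdh, Cs, Idh3b and Fh1. Idh3g, Dlst, Suclg1 and Mdh2 did not pass the test. DESeq2 called 7 of 9 lower, and 9.29% of the genes it tested. The median log2 change of the 9 was -1.21, beside 0.02 over all genes.

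Idh3a stood at 390.4, 324 and 467 CPM in Des+/+ swim and at 167, 143 and 105 CPM in Des-/- swim libraries (log2 change -1.51, SE 0.32, edgeR adjusted p 0.0191). Idh3b stood at 519, 377 and 507 CPM against 227, 224 and 143 CPM (log2 change -1.24, SE 0.26, edgeR adjusted p 0.0176). For Idh3g the groups came close, with 343, 235 and 294 CPM in Des+/+ and 218, 219 and 144 CPM in Des-/- swim libraries. The gap of Idh3g at the nearest libraries was 1.08-fold, against 1.94-fold for Idh3a, and its log2 change of -0.59 (SE 0.26) did not pass (edgeR adjusted p 0.150).

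Cs stood at 853, 644 and 873 CPM in Des+/+ and at 395, 367 and 236 CPM in Des-/- swim libraries (log2 change -1.25, SE 0.32, edgeR adjusted p 0.0344), and Fh1 at 309, 239 and 313 CPM against 142, 136 and 94.2 CPM (log2 change -1.21, SE 0.26, edgeR adjusted p 0.0191). Ogdh stood at 1519, 1113 and 1436 CPM against 613, 604 and 351 CPM (log2 change -1.38, SE 0.38, edgeR adjusted p 0.0421). Its partner Dlst, at 446, 379 and 533 CPM against 291, 279 and 213 CPM, had a log2 change of -0.79 (SE 0.25, edgeR adjusted p 0.0590). For each of these 4 genes replicate 3 was the lowest Des-/- library.

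Suclg1 stood at 286, 211 and 279 CPM in Des+/+ and at 185, 179 and 121 CPM in Des-/- swim libraries (log2 change -0.68, SE 0.23, edgeR adjusted p 0.0804). Mdh2 stood at 873, 580.5 and 762 CPM against 562, 547 and 387 CPM, the narrowest gap of the 9 at 1.03-fold (log2 change -0.57, SE 0.27, edgeR adjusted p 0.184). These values leave the genotype difference of Mdh2 and Suclg1 after swimming undecided rather than absent. The count of 5 depended on single libraries. It was 3, 1 and 0 without Des+/+ non-swim replicate 3, Des+/+ swim replicate 1 and Des+/+ swim replicate 3, and 3, 2 and 1 without Des-/- swim replicates 1, 2 and 3. It stayed at 5 without both Des-/- libraries numbered 3, and the log2 changes of the called members lay between -1.05 and -1.67 over all 12 fits with 1 library left out. The calls over all genes, in either direction, also depended on single libraries, with 1392 in the main fit. They were 930, 561 and 74 without the 3 Des+/+ libraries named above, in that order. Without Des-/- swim replicates 1, 2 and 3 they were 505, 637 and 664, and without both Des-/- libraries numbered 3 they were 1579.

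After swimming, 1 of 13 cardiomyocyte markers was called lower (median log2 change -0.68, Pln at -1.84), 3 of 10 fibroblast markers were called higher (median 1.10), and the 10 macrophage markers had a median of 1.17. Over all genes, 659 of 13158 were called higher after swimming. The summed cardiomyocyte markers ranged from 36794 to 60206 CPM in Des+/+ and from 18668 to 30992 CPM in Des-/- swim libraries. With the marker level as covariate 5 members were called after swimming, namely Cs, Idh3a, Idh3b, Ogdh and Fh1, at log2 changes between -0.70 and -0.97, where 3.00% of all genes were called lower. The covariate did not overlap between these groups either (11.04 to 11.73 in Des+/+ and 10.18 to 10.82 in Des-/- swim libraries), so here too genotype and marker level cannot be told apart in that fit.

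**Figure D2:**
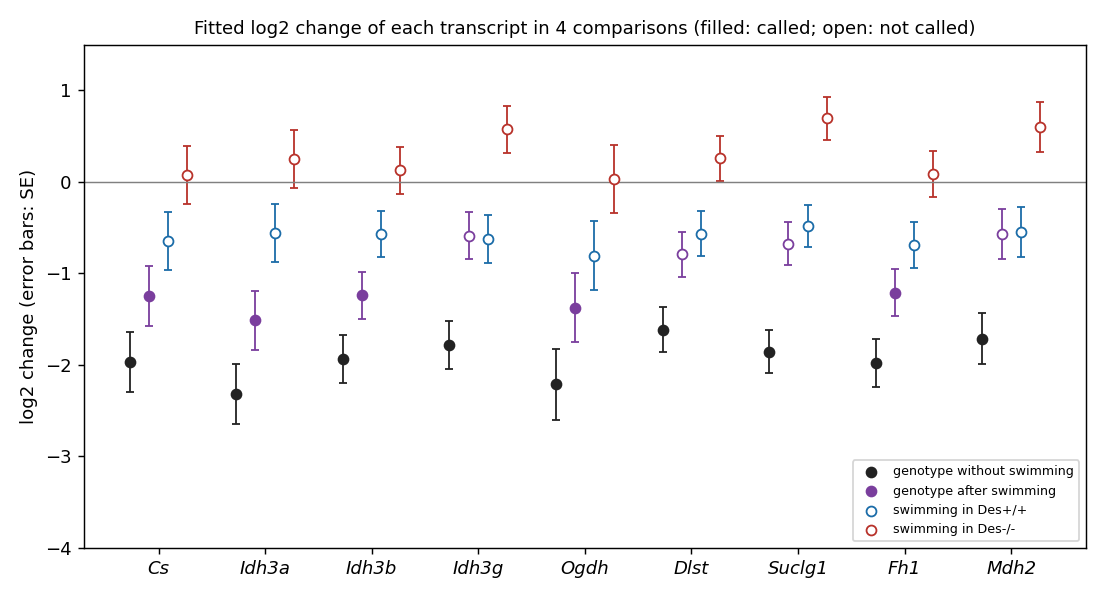
Fitted log2 change of each transcript with its standard error in 4 comparisons, filled where called at an adjusted p under 0.05. Genotype changes without swimming are all filled and run from -1.62 (Dlst) to -2.32 (Idh3a), 5 of 9 are filled after swimming, and 0 of the 18 swimming changes are filled.

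Swimming itself was compared within each background. In Des+/+ hearts all 9 members were lower after swimming, with log2 changes between -0.49 (Suclg1) and -0.81 (Ogdh), and 8 of 9 did not overlap between groups, Mdh2 being the exception, where 18.7% of all genes were lower without overlap. By edgeR 0 of 9 members were called, with 4 at an unadjusted p under 0.05 (Fh1, Idh3g, Dlst and Idh3b), as had 20.5% of all genes. DESeq2 also called 0 of 9, against 7.89% of the genes it tested. By edgeR 0.0912% of all genes were called in either direction. The smallest adjusted p among the members was 0.172 (Fh1, edgeR), and the cardiomyocyte markers had a median log2 change of -0.82.

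In Des-/- hearts the same comparison gave log2 changes above 0 for all 9 members, from 0.03 (Ogdh) to 0.69 (Suclg1), and the groups overlapped for every member. Suclg1, Mdh2 and Idh3g had the highest values, 0.69 (SE 0.23), 0.60 (SE 0.27) and 0.57 (SE 0.26), and were the 3 members with an unadjusted p under 0.05, as had 16.7% of all genes. By edgeR and by DESeq2 0 of 9 were called, where edgeR called 0.0228% of all genes and DESeq2 2.65% of those it tested. The values of Cs, Idh3b, Ogdh and Fh1 took both signs when single libraries were left out. Cell markers moved here as well. The cardiomyocyte markers had a median log2 change of 0.52 with 12 of 13 above 0, and all 10 fibroblast markers (median -0.86) and all 10 macrophage markers (median -1.53) were below 0. With the marker level as covariate 6 of 9 members took values below 0, the lowest being Ogdh at -0.44 and Cs at -0.32, and 0 were called.

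The interaction, which asks whether the genotype difference itself changed with swimming, was above 0 for all 9 members and ran from 0.70 (Idh3b) to 1.20 (Idh3g). With edgeR 0 of 9 were called, as was true of all genes (percent called 0), and 4 members had an unadjusted p under 0.05, as had 16.3% of all genes. These were Suclg1 (log2 1.18, SE 0.33, adjusted p 0.199), Idh3g (log2 1.20, SE 0.36, adjusted p 0.199), Mdh2 (log2 1.15, SE 0.39, adjusted p 0.214) and Dlst (log2 0.82, SE 0.35, adjusted p 0.276). DESeq2 called 2 of 9, Suclg1 (adjusted p 0.0355) and Idh3g (adjusted p 0.0494), where it called 2.47% of the genes it tested in this direction. The cardiomyocyte markers had a median interaction of 1.29 with 13 of 13 above 0, beside 0.82 for the members, and all 10 fibroblast and all 10 macrophage markers lay below 0. With the marker level as covariate the members' interaction ranged from -0.29 (Ogdh) to 0.47 (Suclg1), with 5 of 9 below 0 and 0 called. The Des+/+ swim and Des-/- non-swim libraries enter these values together with those of the single comparisons, so the comparisons are not independent of each other.

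Within a library, the ratio of 2 transcripts does not depend on depth or scaling. It can still depend on the mix of cell types in the library, and the part of that mix in these ratios was not tested. Ratios within a library were compared for 7 pairs of subunits or enzymes and 2 factors, 14 exact permutation tests with 400 arrangements each, two-sided, for which 0.005 is the smallest possible p. For genotype 3 of 7 ratios passed an adjusted p under 0.05, and for swimming 0 of 7.

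In the isocitrate dehydrogenase, Idh3g stood higher against Idh3a without desmin. The count ratio was 0.664, 0.822 and 0.833 in Des+/+ non-swim and 0.878, 0.727 and 0.630 in Des+/+ swim libraries, and it was 1.48, 0.914 and 1.21 in Des-/- non-swim and 1.30, 1.53 and 1.38 in Des-/- swim libraries. All 6 Des-/- libraries lay above all 6 Des+/+ libraries. The log2 difference between genotypes was 0.77 (exact permutation p 0.005, adjusted p 0.035), 0.62 without and 0.93 after swimming.

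The ratio of Idh3g to Idh3b was 0.628, 0.714 and 0.581 in Des+/+ non-swim and 0.661, 0.624 and 0.581 in Des+/+ swim libraries. In Des-/- non-swim libraries it was 0.716, 0.714 and 0.722, and in Des-/- swim libraries 0.957, 0.978 and 1.01. The Des-/- swim libraries thus lay above all other 9, and the Des-/- non-swim libraries just above or level with the highest Des+/+ library. The genotype difference was 0.41 on the log2 scale (exact permutation p 0.01, adjusted p 0.0467), 0.17 without and 0.66 after swimming, and the change of that difference with swimming was not tested. Idh3g is X-linked. Within the Des-/- groups replicate 3, the library with Y-linked reads, had ratios of 0.722 and 1.01, the highest of each group. In Des+/+ non-swim libraries the Y-linked sums were 72.7, 244.7 and 4.06 CPM, and the ratio was highest where the sum was highest. In Des+/+ swim libraries the sums were 143.6, 291.6 and 291.4 CPM, and the ratio was highest where the sum was lowest. For Idh3g to Idh3a, replicate 3 was in the middle of both Des-/- groups. The part of the sex makeup of the pools in these ratios was not tested. The ratio of Idh3b to Idh3a had a log2 difference of 0.36 that did not pass (exact permutation p 0.02, adjusted p 0.056).

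In the 2-oxoglutarate dehydrogenase complex, the ratio of Dlst to Ogdh was 0.296, 0.266 and 0.292 in Des+/+ non-swim, 0.294, 0.340 and 0.371 in Des+/+ swim, 0.480, 0.356 and 0.566 in Des-/- non-swim and 0.475, 0.462 and 0.606 in Des-/- swim libraries. Only Des-/- non-swim replicate 2 fell within the Des+/+ range. The mean log2 level of the cardiomyocyte markers was 9.882, 10.891 and 8.895 in Des-/- non-swim libraries 1 to 3. In Des-/- swim libraries it was 10.755, 10.821 and 10.175. In both Des-/- groups the ratio was higher where this marker level was lower, as in the Des+/+ non-swim but not the Des+/+ swim group. Idh3g to Idh3a followed this order in no group, and Idh3g to Idh3b only in the Des-/- non-swim group. The genotype difference of Dlst to Ogdh was 0.65 on the log2 scale (exact permutation p 0.005, adjusted p 0.035), 0.69 without and 0.61 after swimming.

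Fumarase and citrate synthase moved side by side. Their ratio, Fh1 to Cs, lay between 0.358 and 0.376 in the 6 Des+/+ libraries, between 0.328 and 0.455 in Des-/- non-swim and between 0.359 and 0.399 in Des-/- swim libraries. Its genotype difference was 0.04 on the log2 scale (exact permutation p 0.645, adjusted p 0.67). Mdh2 to Cs was 0.773 to 1.02 in Des+/+, 0.906 to 1.27 in Des-/- non-swim and 1.42 to 1.64 in Des-/- swim libraries, so that the Des-/- swim libraries stood above all others. Its log2 differences, 0.51 for genotype (exact permutation p 0.015, adjusted p 0.0525) and 0.29 for swimming (exact permutation p 0.03, adjusted p 0.07), did not pass. The ratio of Suclg2 to Sucla2, the GTP-forming and ATP-forming beta subunits that pair with Suclg1, had the widest log2 difference of the 14, -0.84 with swimming, which did not pass (exact permutation p 0.05, adjusted p 0.1). Its genotype difference of 0.29 (exact permutation p 0.4, adjusted p 0.56) was the average of 0.81 without and -0.22 after swimming, and ranged from 0.09 to 0.46 when 1 library was left out, lowest without Des-/- swim replicate 3. Idh3g to Idh3b missed the threshold without Des-/- non-swim replicate 1 (adjusted p 0.07, exact permutation) or 3 (adjusted p 0.0525), and without Des-/- non-swim replicate 2 the ratios Idh3b to Idh3a and Mdh2 to Cs also passed (both adjusted p 0.0175). Without both Des-/- libraries numbered 3, the 3 called ratios differed by 0.77, 0.40 and 0.52 on the log2 scale, with adjusted p of 0.07, 0.0933 and 0.07 from 100 exact permutations whose smallest p is 0.01.

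**Figure D3:**
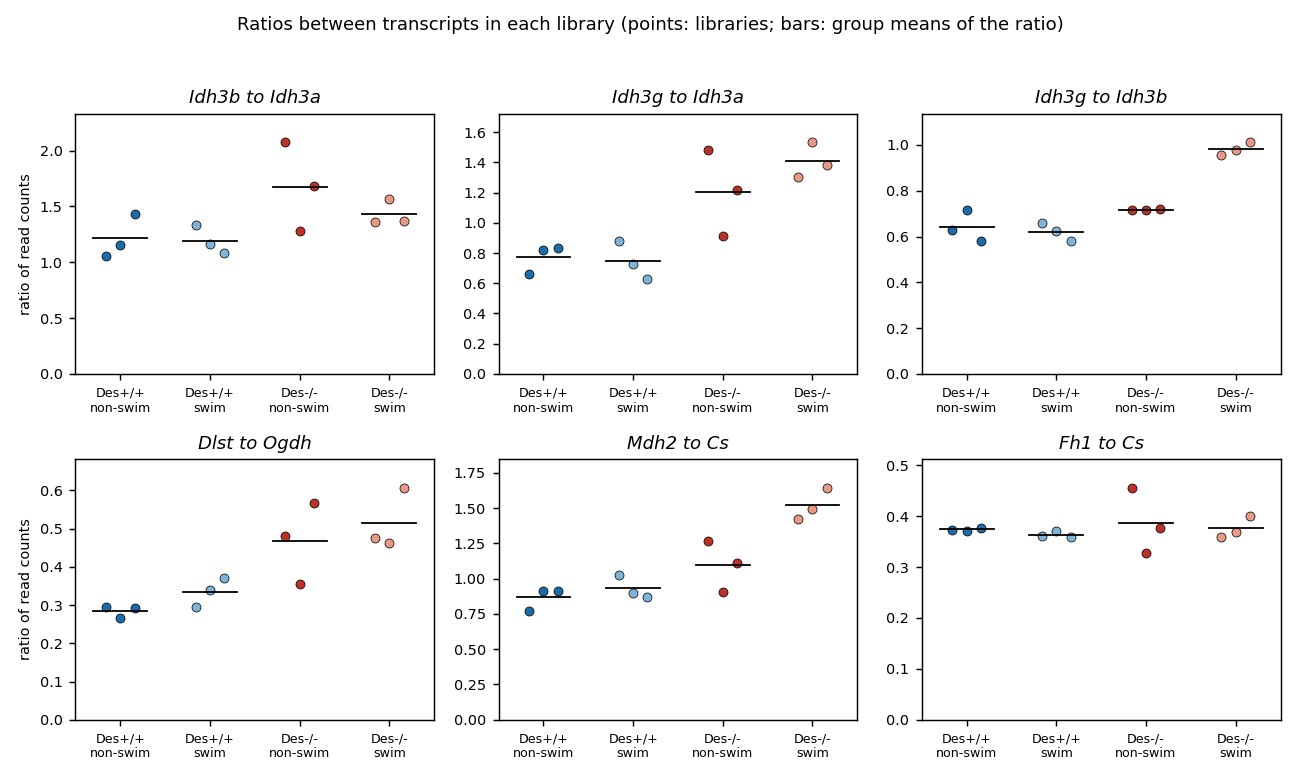
Ratio of read counts between pairs of transcripts in each library (linear axes from 0), with points for libraries and bars for the mean ratio of a group. Idh3g to Idh3b is 0.957 to 1.01 in the Des-/- swim libraries and at most 0.722 in the other 9, whereas Fh1 to Cs stays between 0.328 and 0.455 throughout.

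The members were also set against the cardiomyocyte marker level of the same library, as the log2 level of the gene minus the mean log2 level of the 13 markers. Without swimming the genotype differences on this scale lay between -0.11 (Idh3a) and 0.66 (Dlst), with a median of 0.34, and the groups overlapped for 7 of 9 members, Dlst and Mdh2 being higher in Des-/- without overlap. Over all genes the median difference on this scale was 2.35, and 91.9% of genes were higher without overlap. After swimming the median was -0.38, and 5 members were lower in Des-/- without overlap, namely Idh3a (-0.68), Ogdh (-0.57), Cs (-0.43), Idh3b (-0.42) and Fh1 (-0.38), where 1.18% of all genes were. Idh3g (0.24) and Mdh2 (0.27) were higher without overlap on this scale, where 53.9% of all genes were, and Dlst and Suclg1 overlapped. The median over all genes was 0.85. With the median of the markers in place of their mean, all 9 differences after swimming moved down, the 5 lower members to values between -0.65 and -0.95, Idh3g to -0.02 and Mdh2 to 0.01. In Des-/- hearts, Cs, Ogdh and Fh1 were lower after swimming than without on the scale of the marker mean, again without overlap, by -0.54, -0.55 and -0.57, where 4.93% of all genes were lower without overlap. The median over all genes was -0.71, further below 0 than these values. Against the median of the markers the changes were -0.83, -0.84 and -0.86, beside -1.002 over all genes.

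**Figure D4:**
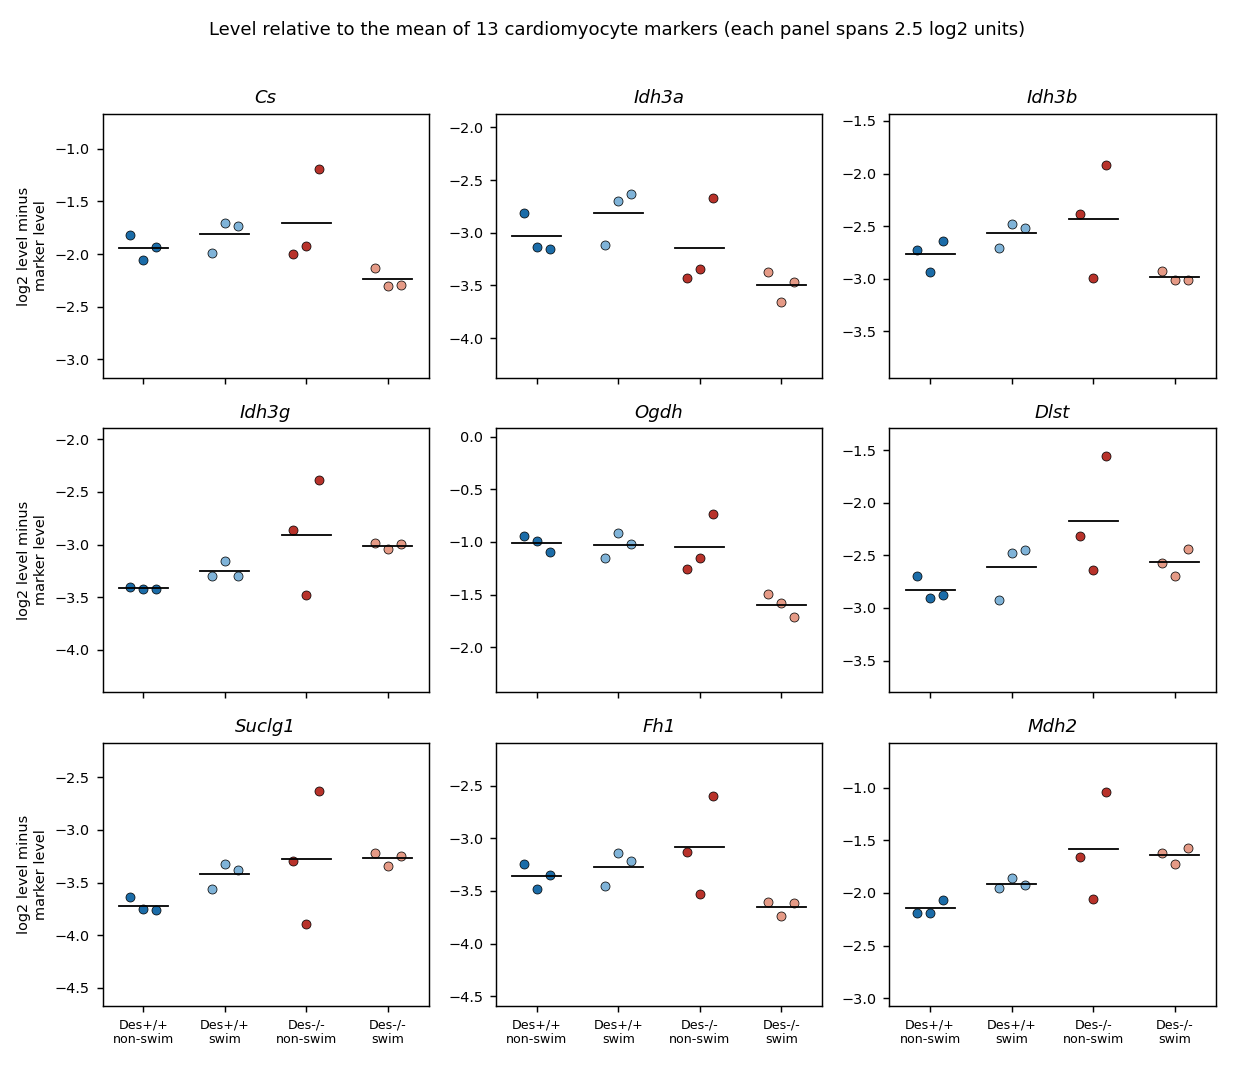
Log2 level of each transcript minus the mean log2 level of 13 cardiomyocyte markers in the same library (panels span equal ranges), with points for libraries and bars for group means. The Des-/- swim libraries of Cs, Idh3a, Idh3b, Ogdh and Fh1 lie below the Des+/+ swim libraries, and Des-/- non-swim replicate 3 is the highest library of its group in every panel.

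Compared per kilobase of the principal transcript, Mdh2 had the highest level in all 4 groups, at 741 ± 150.4 CPM per kb (mean ± SD of 3 libraries) without swimming in Des+/+ and 343 ± 66.7 after swimming in Des-/- hearts. Fh1 had the lowest, at 175 ± 22.8 and 47.0 ± 9.81 in the same groups. In Des+/+ non-swim libraries the order from high to low was Mdh2, Ogdh, Idh3b, Cs, Idh3g, Dlst, Idh3a, Suclg1 and Fh1, and among neighbours only Ogdh and Idh3b, and Suclg1 and Fh1, did not overlap. Idh3g moved from place 5 in the other 3 groups to place 2 in Des-/- swim libraries, where its level was 145 ± 32.0 CPM per kb (SD, n = 3), overlapping that of Ogdh at 127 ± 36.0 but higher than it in all 3 libraries. Per kilobase of all annotated exons, Ogdh instead of Mdh2 came first in 3 of the 4 groups, and Fh1 was at place 6 instead of last in all 4. On that length Idh3g was at place 3 in Des-/- swim libraries, at 71.7 CPM per kb, below Ogdh at 95.8. The order of the members thus depends on the length used.

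The remaining genes of the cycle were counted from a list of 14. Without swimming 10 of 14 were called lower and 0 higher, with a median log2 change of -1.79. Sucla2, the ATP-forming beta subunit of succinyl-CoA ligase, was lowest at -2.59 (SE 0.49, edgeR adjusted p 0.00303). Ogdhl, an Ogdh paralog, had the highest value at 1.88 (SE 1.55, edgeR adjusted p 0.377). After swimming 6 of 14 were called lower (median -1.13), with Suclg2 the lowest of the called at -1.47 (SE 0.24, edgeR adjusted p 0.0109), while Ogdhl stood at -3.75 (SE 1.76, edgeR adjusted p 0.173).

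Of 13 genes of pyruvate entry, which cover the mitochondrial pyruvate carrier, the pyruvate dehydrogenase complex and its kinases and phosphatases, 12 were called lower and 1 higher without swimming (median -1.77). Pdk4, a kinase that shuts the complex when fatty acids are burned, was lowest at -3.74 (SE 0.43, edgeR adjusted p 0.000774), and Pdk3, another of these kinases, was the one called higher at 1.05 (SE 0.30, edgeR adjusted p 0.0225). After swimming 6 of 13 were called lower (median -1.01) and 0 higher. Of 15 genes at side entries and exits of the cycle, 11 were called lower and 1 higher without swimming (median -1.60), from Me3, a mitochondrial malic enzyme, at -2.40 to Slc25a1, the carrier that exports citrate, at 1.17 (SE 0.28, edgeR adjusted p 0.00997). After swimming 3 of 15 were called lower (median -0.88). Beside these 3 lists, 18.0% of all genes were called lower without swimming and 5.57% after it. Those called higher were 1840 of 13158 without and 659 of 13158 after swimming. With swimming, the medians of these 3 lists were -0.58, -0.50 and -0.66 in Des+/+ and 0.11, 0.18 and -0.02 in Des-/- hearts.

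**Figure D5:**
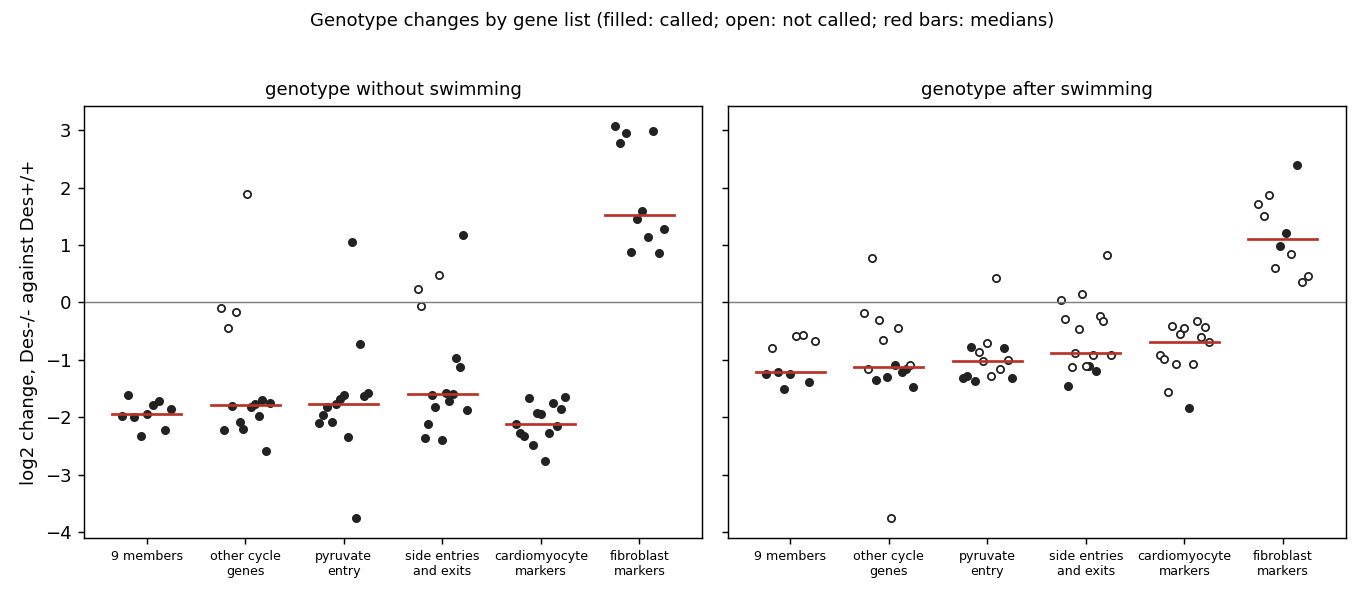
Log2 change between genotypes of the single genes of 6 lists, without swimming on the left and after swimming on the right, filled where called, with red bars for medians. The members' median is -1.94 on the left and -1.21 on the right, and that of the cardiomyocyte markers -2.11 and -0.68.

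The members' profiles over the 12 libraries ran close to each other. Pearson's r between log2 levels of the 36 pairs ranged from 0.948 to 0.997, with a median of 0.976, over libraries that share their scaling and fall into groups. The genes outside the 9 whose profile was most like the members' mean were Atp5a1 (r 0.998), the alpha subunit of ATP synthase, Got2 (r 0.997), the mitochondrial aspartate aminotransferase, Slc25a11 (r 0.997), the 2-oxoglutarate carrier, Acadl (r 0.997) and Echs1 (r 0.996), enzymes of fatty acid oxidation. A likeness above 0.9 was common, with 7.65% of all genes reaching it. The cardiomyocyte markers also ran close to the members' mean, from Pln at r 0.991 and Ryr2 at 0.975 down to Ttn at 0.898. Among the members, Mdh2, Suclg1 and Idh3g were least like the mean, at r 0.976, 0.979 and 0.980.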

How the data were processed

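Poly-A RNA of 12 libraries of adult mouse cardiomyocytes (4 groups of 3, from the labels) was measured by RNA-seq. Each deposited file held unnormalised gene counts. The authors had aligned the reads to GRCm38 with HISAT2 2.2.1, sorted them with SAMtools 1.13 and counted them with HTSeq-count in reverse-strand mode. The release of the annotation was not given in the sources used here. The sources differ on the kit, which keeps no strand information by the labels but does by the methods. Of 12 genes lying at least 80% inside exons of an expressed gene on the opposite strand, 8 had under 10% of its reads per base (median of the 12, 1.20%). Counting without strand information would set reads shared by both genes aside as ambiguous, so it could leave such genes low too. These values therefore cannot decide between the sources. Idh3b shares 5 exonic bases with Nop56 on the opposite strand.

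Counts were filtered with filterByExpr (13158 genes kept), scaled by TMM and fitted in R 4.3.3 with edgeR 4.0.16 as 1 model of 4 group means (8 residual degrees of freedom). P-values of 5 contrasts were adjusted by Benjamini and Hochberg over all genes, and genes were called under 0.05. DESeq2 1.42.0 served as an alternative. Ratios used counts plus 0.5 and exact permutation within the other factor. The correlation profile used log2 CPM with a prior count of 2. Procedures were tested on simulated data. Libraries are pools, so p-values measure the spread between pools.

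For swimming in Des-/- hearts, the deviations of same-numbered libraries from their group means correlated at 0.365, 0.316 and 0.602. Libraries 1 and 2 correlated across numbers almost as much (0.292 and 0.299) and libraries 3 with the others at -0.414 to -0.470, so the numbers set only replicate 3 apart. Whether the numbers pair libraries was read from the data, not the labels, and no pairing was shown.

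The members and lists were chosen with earlier results of these data known. Named are the 9 members, the lowest and highest genes of lists, genes a result turns on, and the 5 genes most correlated with the members' mean. Sequences came from RefSeq (GRCm38.p6). Alternatives were other scalings, no filter, DESeq2, a stricter threshold, a fit to the compared libraries alone, blocking by replicate number, and dropping single libraries. The marker covariate, leaving out both Des-/- libraries numbered 3 and the Y-linked sum were chosen after the data were seen.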

Additional observations from a re-analysis of the deposited data

Results flagged for a closer look

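Reads that aligned uniquely but fell in no gene lie outside the counts used here, and their share was higher in the swim groups than in the Des+/+ non-swim group, which is what drew attention to it. The mean share was 36.4% in Des+/+ non-swim, 47.85% in Des+/+ swim, 45.2% in Des-/- non-swim and 60.01% in Des-/- swim libraries. Des-/- non-swim libraries 1 to 3 stood apart at 52.3%, 49% and 34.2% of such reads, the last within the Des+/+ non-swim range of 34.0% to 39.3%. Reads on the strand opposite to a gene also belong to this class. Its part in the members' levels was not tested.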

How the results depend on the processing

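The genotype result without swimming (9 of 9 called) held under every alternative planned, with 9 of 9 called in each leave-one-out fit, and fell to 0 of 9 with the marker covariate added after the data were seen. After swimming, 5 of 9 members were called, 0 at an adjusted p under 0.01, 4 with upper-quartile scaling, 7 with DESeq2 (which called 9.29% of the genes it tested lower) and 0 to 6 when 1 library was left out. Over all genes, in either direction, 1392 were called after swimming, 48 of them at an adjusted p under 0.01. Upper-quartile scaling gave 1404, and leaving out 1 library gave 74 to 2142. Without swimming, leaving out 1 library gave 2612 to 4590 genes called in either direction. The interaction gave 0 of 9, and 2 with DESeq2. Upper-quartile scaling moved the median of all genes in the genotype comparisons from 0.04 to 0.14 without and from 0.02 to 0.12 after swimming, and every member stayed below 0. For the genotype ratios, 3 were called, 3 with 5 added to the counts, 2 to 5 when 1 library was left out, and 0 without both Des-/- libraries numbered 3, where 100 arrangements remain and the smallest p is 0.01. With the replicate block, 0 genotype ratios were called, since its 64 arrangements allow no p under 0.0312 (smallest adjusted p 0.146). The block by replicate number changed no count of members called (9, 5, 0, 0 and 0 over the 5 contrasts). Counts of swimming ratios stayed at 0 in all settings. At these depths each member had at least 612 reads in every library, so counting error was small beside the spread between pools, which sets the limits here.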
